A study of Mus musculus with 28 samples.

Results

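This report describes chromatin at the genes of lysosomal acidification and proteolysis in mouse bone marrow-derived macrophages. The genes included the subunits of the vacuolar proton pump (symbols starting with Atp6v), the cathepsins (Cts plus 1 letter), the lysosome-associated membrane proteins (Lamp), the hexosaminidase gene Hexa, and legumain (Lgmn); Atp6v0d2 and Ctsk were left out. A peak was assigned to such a gene when the gene's span was the nearest protein-coding span, within 50 kb. The name rule gave 46 genes. It took in 244 of the 63313 peaks of histone H3 lysine 27 acetylation (H3K27ac) at 36 genes, and 80 of the 8394 glucocorticoid receptor (GR) peaks at 23 genes. Of these, 227 of 59881 H3K27ac peaks at 35 genes and 75 of 5183 GR peaks had enough counts to be tested. The outermost H3K27ac member lay 46.0 kb from Ctsc, and the nearest peak outside the limit lay 50.6 kb from the same gene. Of the H3K27ac members, 11 touched another gene equally closely and were kept. One of them was the broad Ctss peak, which spanned Ctsk as well. Others were lead peaks, defined below, of Ctsb (with Fdft1), Hexa (Tmem202), Atp6v1b2 (Slc18a1), Atp6v1d (Eif2s1), Atp6v1g2 (Nfkbil1), Ctsa (Neurl2) and Atp6v0d1 (Agrp). The peak over the Atp6v1a start touched Naa50, a second Atp6v0c peak Amdhd2 and a second Ctsd peak Ifitm10. Changes at these peaks cannot be credited to the member gene alone. No H3K27ac peak was assigned to Atp6v0e2, Atp6v1b1, Atp6v1c2, Atp6v1fnb, Ctsj, Ctsm, Ctsq, Ctsr, Ctsw or Lamp5, and the peak at Lamp3 was too low to test.

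Bone marrow of male C57BL/6 mice, 8 to 10 weeks old, was cultured with L-cell conditioned medium over 5 days to give macrophages. They then received vehicle, 500 nM corticosterone (Cort, the main glucocorticoid of rodents), 100 nM dexamethasone (Dex, a synthetic glucocorticoid) or 10 ng/ml interleukin 4 (IL4, a cytokine that drives an alternative macrophage state), labelled as 24 h throughout except for the H3K27ac vehicle libraries, whose labels give no time. H3K27ac, a mark of active promoters and enhancers, was read in 3 libraries per group. GR was read in 4 libraries each of vehicle, Cort and Dex and in 3 of IL4; replicates 1 and 2 were labelled batch 1 and replicates 3 and 4 batch 2, and all IL4 libraries belonged to batch 2. The labels do not say whether replicates were separate animals or cultures, so p-values measure the spread between these samples, which may be technical.

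A lysosome keeps its lumen acid with the vacuolar proton pump, in which a cytosolic V1 sector hydrolyses ATP and turns a rotor, and a membrane V0 sector carries the protons. The acid activates many of the cathepsins. Cathepsins B, C, F, H, L, O, S and Z are cysteine proteases, D and E are aspartic proteases, and A and G are serine proteases. Legumain cleaves after asparagine and processes several cathepsins. LAMP1 and LAMP2 coat the inner face of the lysosomal membrane, and Hexa encodes an enzyme subunit for the breakdown of gangliosides. Macrophages, whose work is to digest what they engulf, express many of these genes at high levels.

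Many lysosomal genes carry an E-box, CACGTG, near the start, and its extended form TCACGTGA is the core of the element bound by TFEB, a transcription factor that drives lysosomal genes. In the 250 bases before the gene start in RefSeq (GRCm38.p6, the mm10 assembly; 36 of the 46 genes matched), CACGTG was present at 8 of 36 member genes (22.2%) and at 1331 of 17486 genes in all (7.61%). TCACGTGA, which contains CACGTG, was present at 3 of 36 (8.33%; Atp6v1a, Ctsa and Ctsd) and at 1.16% of all genes. Both motifs read the same on either strand. The windows below are shown because they hold these matches; they are printed 5′ to 3′ on the gene's strand, with the E-box or its extended form in capitals. In Lamp1, 4 E-boxes stood between 56 and 10 bases before the start; in Ctsa the match stood 6 bases, in Ctsd 92 and in Atp6v1a 125 bases before it.
Lamp1, chr8:13159080-13159160, plus strand: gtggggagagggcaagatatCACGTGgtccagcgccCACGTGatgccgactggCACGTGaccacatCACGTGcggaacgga
Ctsa, chr2:164833740-164833772, plus strand: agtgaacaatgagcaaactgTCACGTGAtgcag
Ctsd, chr7:142387899-142387946, minus strand: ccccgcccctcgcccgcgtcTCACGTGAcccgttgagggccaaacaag
Atp6v1a, chr16:44139364-44139411, minus strand: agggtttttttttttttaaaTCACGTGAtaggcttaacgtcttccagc
Atp6v0b, chr4:117887330-117887385, minus strand: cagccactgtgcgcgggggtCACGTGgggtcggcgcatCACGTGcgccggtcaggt
Ctsl, chr13:64370731-64370770, minus strand: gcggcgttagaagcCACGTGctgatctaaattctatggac
Lgmn, chr12:102439116-102439161, minus strand: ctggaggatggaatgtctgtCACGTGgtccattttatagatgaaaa

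Each of these 7 windows lay inside an H3K27ac member peak, and no GR member peak overlapped any of them. The eighth gene was Ctsf, whose window lay in no member peak. The palindromic glucocorticoid response element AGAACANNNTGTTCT matched 0 of the 36 promoters and 0.0114% of all promoters. Its half-site AGAACA, read on both strands, was in 19.4% of the member promoters and in 15.8% of all. The STAT6 type site TTCNNNNGAA was in 1 member promoter, that of Atp6v0e2 (2.78%), and in 6.27% of all. These are letter matches only.

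Summed counts per H3K27ac library ran from 6829787 to 15695771, and those per GR library from 900063 to 1981582. The member peaks took 0.685 to 0.729% of the H3K27ac counts with vehicle, 0.732 to 0.811% with Cort, 0.728 to 0.812% with Dex and 0.834 to 0.878% with IL4. All 3 IL4 libraries were thus above all others, and the steroid libraries overlapped each other. H3K27ac values are given as CPM (counts scaled to library size, with trimmed mean of M-values normalization), and a peak was called when the Benjamini-Hochberg adjusted p of edgeR's quasi-likelihood test over all tested peaks was under 0.05. In whole cell populations, fewer cells carrying a mark and less of it per cell cannot be told apart.

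The gene's lead peak, the member peak with the highest average log2 CPM, served to compare genes. Per kb of peak, the vehicle level of H3K27ac ranked Lgmn first at 41.6 CPM per kb, then Atp6v0c at 37.9 and Ctsa at 28.2. Other broad cathepsin peaks ran from Ctsz at 24.0, Ctsd at 23.9 and Ctsb at 22.8 to Ctss at 18.3 and Ctsl at 13.4 CPM per kb. The lowest were Ctsg, a protease of neutrophil and monocyte granules, at 2.57, Ctsf at 3.15, and the tissue-restricted pump subunits Atp6v0a4 at 3.45 and Atp6v1e2 at 3.49 CPM per kb. The median over lead peaks was 18.3 CPM per kb for the cysteine cathepsins with legumain, 14.0 for V0 and 13.5 for V1. Some lead peaks lay outside their gene. That of Lgmn was 9.20 kb from Lgmn and 11.3 kb from Golga5. That of Ctsl was 24.9 kb from Ctsl and 27.9 kb from Cdk20. Those of Atp6v1c1, Atp6v1e2, Atp6v1g3, Ctse and Ctsg lay 15.6, 5.77, 32.2, 3.06 and 2.01 kb outside.

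**Figure D1:**
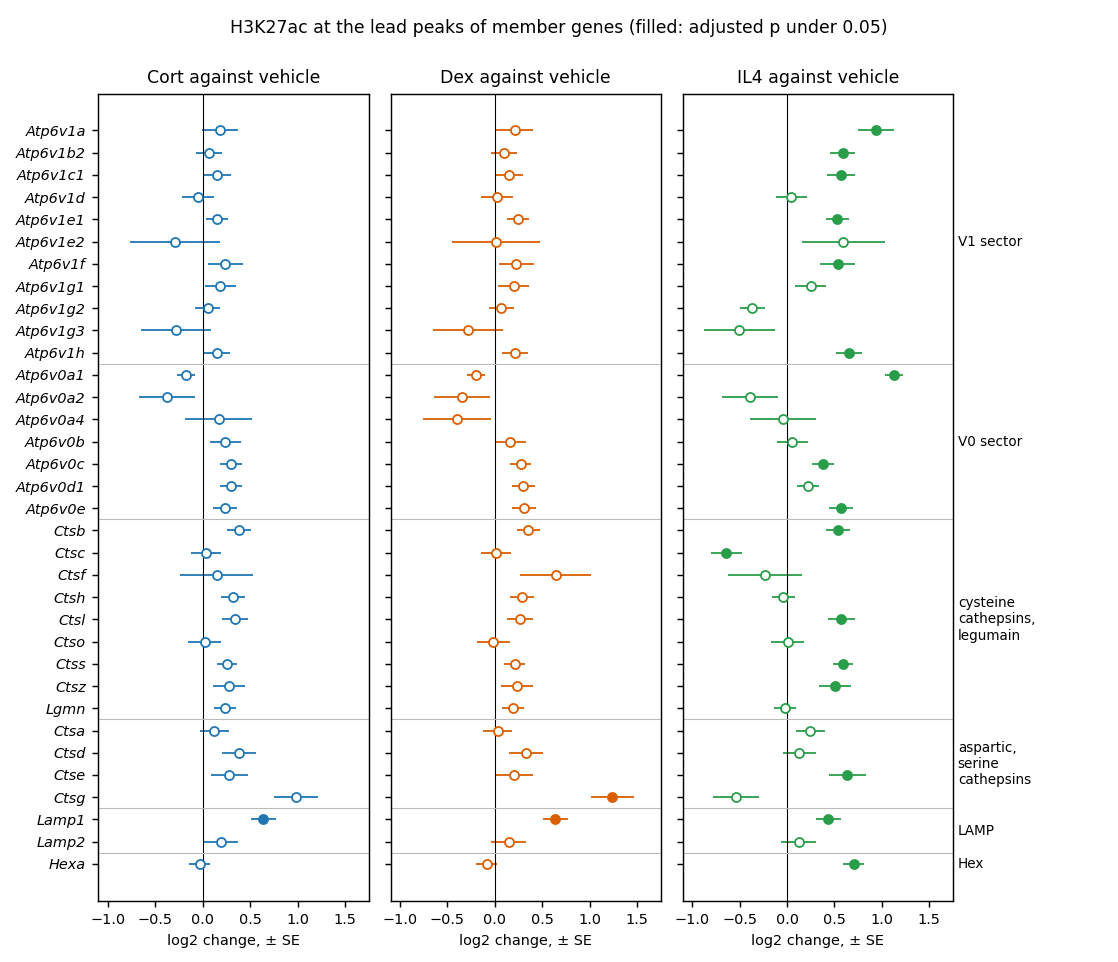
Log2 change in H3K27ac against vehicle (x axis) with its standard error at the lead peaks of member genes (y axis, grouped by role) for Cort, Dex and IL4; filled points were called. With IL4, 16 lead peaks were called higher and 1, Ctsc, lower, while Cort gave 1 call (Lamp1) and Dex 2 (Lamp1 and Ctsg).

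IL4 was the treatment with the most change. It raised H3K27ac at 51 member peaks near 22 genes and lowered it at 14 peaks near 5 genes, that is 22.5% and 6.17% of the members, where 27.6% of all tested peaks were called (14.7% higher and 12.9% lower). The median log2 change was 0.23 over the members and -0.02 over all peaks. Of the 35 lead peaks 16 rose and 1 fell, beside 12.1% and 11.3% of the lead peaks of all genes. The lead peaks that rose came from V1 (6 of 11), V0 (3 of 7), the cysteine cathepsins (4 of 9), cathepsin E, Lamp1 and Hexa.

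In V1 the risers were the catalytic subunit gene Atp6v1a, its partner Atp6v1b2, Atp6v1c1, the stator subunit gene Atp6v1e1, Atp6v1f and Atp6v1h, with log2 changes of 0.53 to 0.94. At the lead peak of Atp6v1a (chr16:44116658-44130773, in the gene) the vehicle libraries read 172, 159 and 243 CPM and the IL4 libraries 352, 398 and 348 CPM. The groups did not overlap, and the log2 change was 0.94 ± 0.19 (SE; edgeR adjusted p = 0.0030). The neighbouring peak over the Atp6v1a start, which holds the E-box window shown above, rose by 0.52 ± 0.11 (adjusted p = 0.0043). The Atp6v1h lead peak read 22.3, 21.3 and 26.4 CPM with vehicle and 36.8, 36.2 and 37.0 CPM with IL4, a log2 change of 0.65 ± 0.14 (adjusted p = 0.0034). Not called were Atp6v1d, at 0.05 ± 0.17, and Atp6v1g1, at 0.25 ± 0.16. Atp6v1g2, a G subunit better known from neurons, was at -0.37 ± 0.13 (adjusted p = 0.055, and 0.0012 with the replicate number as a block). The Atp6v1g2 peak also overlapped Nfkbil1.

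Among the V0 genes, Atp6v0a1, which encodes an isoform of the large subunit that holds the proton channel, had the largest change at the lead peak. Its lead peak over the start (chr11:101006659-101016613) read 127, 139 and 129 CPM with vehicle, 119, 113 and 118 with Cort, 117, 115 and 113 with Dex, and 280, 291 and 294 with IL4. The IL4 libraries stood apart from the other 9, with a log2 change of 1.13 ± 0.10 (edgeR adjusted p = 6.1e-06). A peak 13.0 kb outside the gene (chr11:100992363-100996374) went from 20.8, 16.5 and 19.4 CPM with vehicle to 91.9, 90.4 and 93.1 CPM with IL4, a log2 change of 2.28 ± 0.13 (adjusted p = 8.5e-07). Another peak, 4.12 kb outside (chr11:101000205-101005300), rose by 1.82 ± 0.20 (adjusted p = 4.8e-05). In all, 10 of the 20 tested peaks of this gene were called higher with IL4 and none lower.

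Other V0 genes moved less at the lead peak: Atp6v0e rose by 0.57 ± 0.13 (edgeR adjusted p = 0.0048) and Atp6v0c, which encodes the proteolipid ring, by 0.38 ± 0.11 (adjusted p = 0.023). A smaller Atp6v0e peak 4.89 kb outside the gene (chr17:26704537-26706584) went from 5.94, 7.13 and 8.68 CPM to 22.8, 20.1 and 25.1 CPM, a log2 change of 1.63 ± 0.18 (adjusted p = 4.3e-05). A small peak inside Atp6v0a2 (chr5:124636944-124637289) rose by 2.88 ± 0.57 (adjusted p = 0.0024) from a level of 0.495, 0.0819 and 0.248 CPM, while that gene's lead peak was at -0.39 ± 0.29. Atp6v0b and Atp6v0d1 were not called at the lead peak, with log2 changes of 0.06 ± 0.16 and 0.22 ± 0.12.

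**Figure D2:**
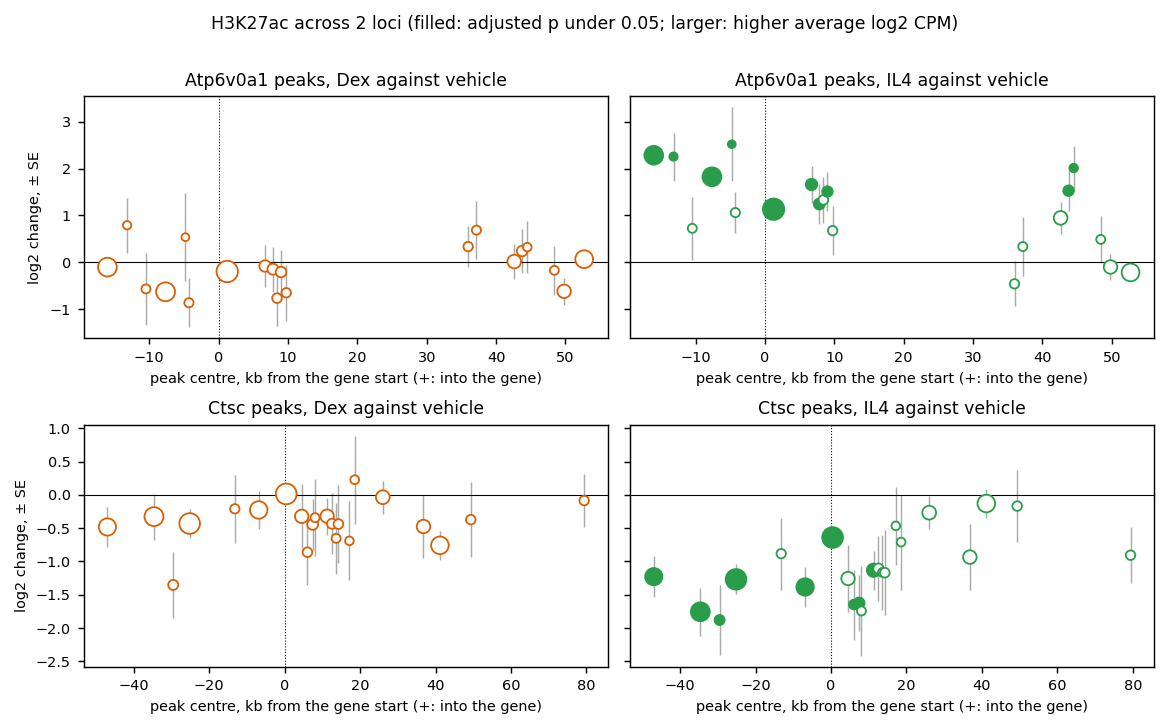
Log2 change in H3K27ac with Dex and with IL4 against vehicle (y axis) at the tested peaks of Atp6v0a1 (20 peaks) and Ctsc (22 peaks), by distance in kb from the gene start (x axis); bars are SE, filled points were called and larger points have a higher average level. With IL4, 10 Atp6v0a1 peaks were called higher and 9 Ctsc peaks lower, and with Dex no peak of either gene was called.

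Cysteine cathepsins went both ways with IL4. Ctss, the cathepsin that trims the invariant chain in antigen presentation, read 446, 476 and 496 CPM with vehicle and 661, 797 and 676 CPM with IL4 at its lead peak (chr3:95507710-95533479), which also covers Ctsk. The groups did not overlap and the log2 change was 0.59 ± 0.11 (edgeR adjusted p = 0.0017). Ctsb rose by 0.54 ± 0.12 (adjusted p = 0.0056), Ctsl by 0.57 ± 0.14 (adjusted p = 0.0083) and Ctsz by 0.50 ± 0.17 (adjusted p = 0.038). The Ctsl lead peak lay 24.9 kb outside the gene, and the peak over the Ctsl start rose by 0.59 ± 0.14 (edgeR adjusted p = 0.0080). A peak inside Ctsh (chr9:90059038-90061355) went from 15.5, 21.2 and 16.4 CPM to 31.2, 33.6 and 32.4 CPM, a log2 change of 0.87 ± 0.15 (adjusted p = 0.00096), whereas the Ctsh lead peak was at -0.04 ± 0.13. Lgmn split in the same way. Its lead peak, 8.86 kb long and 9.20 kb outside the gene, was at -0.02 ± 0.12. A peak inside the gene (chr12:102415764-102426770) rose by 0.70 ± 0.15 (edgeR adjusted p = 0.0041).

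Ctsc, which encodes the dipeptidyl peptidase that activates granule serine proteases, was the one gene whose lead peak fell. At that peak (chr7:88275490-88281495) the vehicle libraries read 110, 144 and 107 CPM, Cort and Dex gave log2 changes of 0.04 ± 0.16 and 0.02 ± 0.16, and the IL4 libraries read 73.2, 86.4 and 71.5 CPM. All IL4 libraries were below all vehicle libraries, with a log2 change of -0.64 ± 0.16 (edgeR adjusted p = 0.0090). Upstream, the peak at chr7:88249565-88256207, 21.8 kb outside the gene, went from 118, 159 and 132 CPM to 58.9, 67.8 and 43.5 CPM, a log2 change of -1.27 ± 0.23 (adjusted p = 0.0012). Further out, at 32.9 kb, chr7:88241733-88245108 changed by -1.76 ± 0.36 (adjusted p = 0.0030). Of 22 tested Ctsc peaks 9 were called lower with IL4 and 0 higher, which is 9 of the 14 member peaks that fell.

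The remaining falls included a peak 8.38 kb outside Atp6v1a, a Ctsh peak at one gene end and a pair near Atp6v1g3, a V1 subunit gene of kidney. At the Atp6v1g3 start (chr1:138274371-138275791) the level went from 11.3, 17.8 and 13.1 CPM to 3.45, 4.94 and 3.11 CPM, a log2 change of -1.87 ± 0.39 (edgeR adjusted p = 0.0032). The Atp6v1a peak at chr16:44076091-44077026 was low throughout, with 3.10, 5.24 and 3.29 CPM against 1.36, 1.22 and 0.541 CPM.

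For the other hydrolases and membrane proteins, Hexa, whose product is the alpha subunit of hexosaminidase A, read 348, 389 and 409 CPM with vehicle and 610, 631 and 626 CPM with IL4 at its lead peak (chr9:59535933-59554083). The groups did not overlap, with a log2 change of 0.70 ± 0.11 (edgeR adjusted p = 0.00054). Lamp1 rose by 0.43 ± 0.13 (adjusted p = 0.025), and the Lamp2 lead peak was at 0.12 ± 0.18. A peak 9.18 kb outside Lamp2 (chrX:38465637-38467760) went from 2.85, 8.68 and 2.42 CPM to 20.7, 37.4 and 21.9 CPM, a log2 change of 2.51 ± 0.66 (adjusted p = 0.012). Among aspartic and serine cathepsins, Ctse rose by 0.64 ± 0.19 (adjusted p = 0.025), Ctsd was at 0.13 ± 0.18 and Ctsa at 0.24 ± 0.15. The lead-peak calls of Atp6v0c, Atp6v1f, Ctse, Ctsz and Lamp1 were each lost when one or more single libraries were left out. Without IL4 replicate 3, 39 member peaks in place of 65 were called. The share of all peaks in that fit is not given here, so the drop is not read as particular to the members. Without single vehicle libraries the share of all peaks called with IL4 fell from 27.6% to between 19.8 and 23.9%.

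By position, 14 of 39 member peaks within 1 kb of a gene start or end were called higher with IL4, beside 9.14% of all such peaks. The counts were 20 of 115 for peaks elsewhere in the gene (14.8% of all) and 17 of 73 for peaks outside it (17.4% of all).

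The 2 glucocorticoids gave few calls at these peaks in the main fit, which has no term for the replicate number. With that number as a block, 12.8% of members were called with Cort (12.6% of all peaks) and 18.1% with Dex (20.3% of all). The counts that follow are from the main fit. Cort raised 1 of 227 members and lowered none, where 1.55% of all peaks were called (1.18% higher), and 30 members had an unadjusted p under 0.05. Dex raised 4 and lowered none, where 5.24% were called (2.9% higher and 2.34% lower). The median log2 changes were 0.03 and 0.06 over the members and 0.00 and 0.01 over all peaks. Lead peaks moved a little further: their median was 0.18 with Cort and 0.20 with Dex, beside 0.04 and 0.04 over the lead peaks of all genes. Both steroids were set against the same vehicle libraries, so their medians are not independent.

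Lamp1 was the one lead peak called with all 3 treatments. At chr8:13153405-13163129, over the gene start and the 4 E-boxes shown above, the vehicle libraries read 124, 136 and 146 CPM, Cort 201, 191 and 242, Dex 205, 189 and 240, and IL4 165, 195 and 189 CPM. No treated library reached down to the vehicle range. The log2 change was 0.64 ± 0.13 with Cort (edgeR adjusted p = 0.027) and 0.64 ± 0.13 with Dex (adjusted p = 0.014). The Cort call was lost in 5 of the 6 fits that left out a vehicle or Cort library.

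Ctsg had the widest steroid change of the lead peaks. Its peak (chr14:56104585-56106377), 2.01 kb outside the gene and in a cluster of granule protease genes, read 5.70, 3.69 and 4.47 CPM with vehicle, 10.2, 10.0 and 6.85 with Cort, 13.1, 9.24 and 10.2 with Dex, and 3.45, 3.08 and 2.98 with IL4. Every steroid library was above every vehicle library, and every IL4 library below. The log2 change was 1.24 ± 0.23 with Dex (edgeR adjusted p = 0.0079) and 0.98 ± 0.23 with Cort (adjusted p = 0.054, and 0.0011 with the replicate block). Among the 10 neutrophil marker genes, 4 had no H3K27ac peak, among them Mpo, S100a9 and Ly6g, and Prtn3 was called higher with both steroids. Their summed level was 164 to 191 CPM with vehicle, 183 to 220 with Cort and 183 to 217 with Dex. The part of such cells in the Ctsg values was not tested.

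The other Dex calls were inside genes. An Atp6v0d1 peak (chr8:105542864-105547912) read 20.6, 17.9 and 21.2 CPM with vehicle and 39.4, 29.7 and 42.8 CPM with Dex, without overlap, a log2 change of 0.91 ± 0.19 (edgeR adjusted p = 0.014). With Cort it was at 0.55 ± 0.19 (adjusted p = 0.19, and 0.0039 with the replicate block), and with IL4 at 0.09. Atp6v0d1 encodes the subunit that links the rotor to the proteolipid ring. The Ctsh peak that rose with IL4 also rose with Dex, to 30.6, 25.9 and 26.0 CPM, a log2 change of 0.63 ± 0.15 (adjusted p = 0.028). Of the 6 fits that left out a vehicle or Dex library, the Dex call was lost in 3 at Lamp1, in 4 at Atp6v0d1, in 4 at Ctsh and in 0 at Ctsg, with edgeR adjusted p of up to 0.069, 0.072, 0.12 and 0.047.

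**Figure D3:**
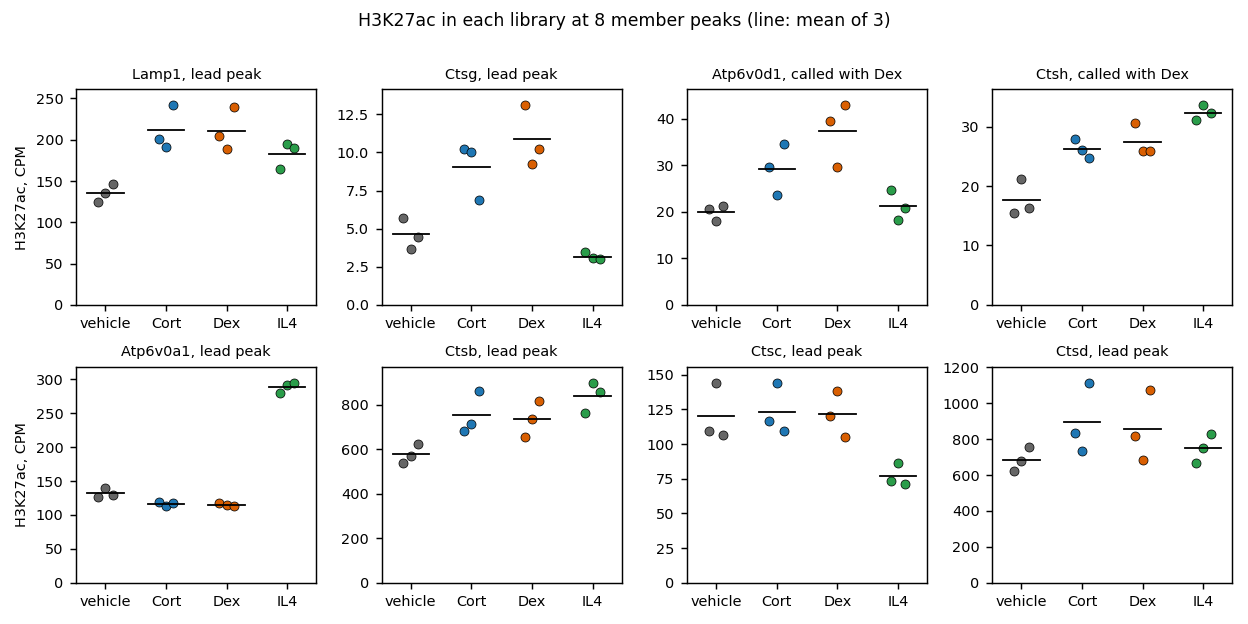
H3K27ac level in CPM (y axis) in each library of the 4 groups (x axis; the line is the mean of 3) at the lead peaks of Lamp1, Ctsg, Atp6v0a1, Ctsb, Ctsc and Ctsd and at the peaks inside Atp6v0d1 and Ctsh called with Dex. At Lamp1 every treated library lay above the highest vehicle value of 146 CPM, and at Atp6v0a1 the 3 IL4 libraries, at 280 to 294 CPM, stood apart.

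H3K27ac libraries with the same replicate number deviated together, so the number was also fitted as a block. With it, Cort raised 18 and lowered 11 members (12.6% of all peaks called, 6.44% higher and 6.13% lower) and Dex raised 26 and lowered 15 (20.3%, 9.91% and 10.3%). At the lead peaks it gave 11 higher and 1 lower with Cort (8.27% and 5.45% of all lead peaks) and 11 higher and 2 lower with Dex (11.4% and 9.71%). The broad Ctsb peak (chr14:63121286-63146616) is an example: 536, 571 and 624 CPM with vehicle, 681, 711 and 862 with Cort, 655, 736 and 817 with Dex. The log2 change of 0.38 ± 0.12 with Cort had an edgeR adjusted p of 0.16 without the block and 0.00047 with it, and the 0.35 ± 0.12 with Dex had 0.12 and 0.00056. Ctsd, whose libraries read 622, 677 and 755 CPM with vehicle and 834, 733 and 1111 CPM with Cort, was at 0.38 ± 0.18, with adjusted p of 0.36 and 0.0053. Among the lower lead peaks with Dex was that of Atp6v1g3, 32.2 kb outside the gene. Its log2 change was -0.29 ± 0.37 in the fit without the block. With the block its edgeR adjusted p was 0.031, and the SE of that fit is not given here. With IL4 the block gave 68 higher and 34 lower (43.5% of all peaks called, 21.9% higher and 21.6% lower). The lead peaks that fell with IL4 in that fit were those of Ctsc, Atp6v1g2, Atp6v1g3, Atp6v0a2 and Ctsg.

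Dex and Cort differ in dose as well as in structure (100 nM against 500 nM), so their values are set side by side. No member peak, and 0% of all tested peaks, differed between them by edgeR; DESeq2 also called 0, and 2 members had an unadjusted p under 0.05. Over the 35 lead peaks the difference Dex minus Cort ran from -0.57 to 0.49 on the log2 scale, and the 95% intervals reached from -1.35 to 1.33, the limits of low peaks. The intervals were narrower at the stronger peaks: -0.28 to 0.28 at Lamp1, -0.23 to 0.18 at Atp6v0a1 and -0.29 to 0.23 at Ctsb.

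Against IL4, Cort was higher at 8 and lower at 34 members (25% of all peaks called) and Dex higher at 10 and lower at 32 (26.7%). For Cort 3.52% of members were higher and 15% lower, beside 11.3% and 13.7% of all peaks. For Dex these were 4.41% and 14.1%, beside 12.1% and 14.6%. The share called lower was thus near that of all peaks, and the share called higher was below it. The same lead peaks stood lower with Cort and with Dex than with IL4 at Ctss, Hexa, Atp6v1a, Atp6v0a1, Atp6v1b2 and Atp6v1h, and higher at Ctsg, Ctsc and Atp6v1g2; Atp6v1e1 was lower with Cort at -0.38. With the block the counts were 24 higher and 52 lower with Cort (40.4% of all peaks, 19.9% and 20.5%). With Dex they were 29 higher and 54 lower (42.7%, 21.2% and 21.5%). Both comparisons use the same IL4 libraries. Among the lead peaks Ctsg gave the widest difference, 1.77 for Dex minus IL4 and 1.52 for Cort minus IL4. Atp6v0a1 was at -1.33 and -1.30.

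Other lysosomal genes came from lists drawn up from general knowledge. Over all tested peaks 1.18% rose and 0.376% fell with Cort, 2.9% and 2.34% with Dex, and 14.7% and 12.9% with IL4. With the replicate block these shares were 6.44% and 6.13% with Cort, 9.91% and 10.3% with Dex, and 21.9% and 21.6% with IL4. Of 35 further hydrolases and activators 34 had peaks, 122 in all. Of these peaks 4 rose and 0 fell with Cort (3.28% and 0%), 7 and 3 with Dex (5.74% and 2.46%), and 18 and 8 with IL4 (14.8% and 6.56%). With the replicate block the counts were 16 and 8 with Cort (13.1% and 6.56%), 20 and 10 with Dex (16.4% and 8.2%), and 36 and 14 with IL4 (29.5% and 11.5%). Galc, the enzyme that degrades galactosylceramide, had a peak at chr12:98209922-98212084 that rose by 3.20 ± 0.26 with IL4. Of 96 peaks at 23 membrane and transport genes, 0 rose and 2 fell with Cort (0% and 2.08%). With Dex 1 rose and 3 fell (1.04% and 3.12%), and with IL4 16 rose and 9 fell (16.7% and 9.38%). With the block 12 rose and 5 fell with Cort (12.5% and 5.21%), 14 and 8 with Dex (14.6% and 8.33%), and 27 and 16 with IL4 (28.1% and 16.7%). Tpcn2, an ion channel of the lysosomal membrane, rose by 3.94 ± 0.27 with IL4 at one peak, and Tpcn1 was lower with Dex at -1.08 ± 0.21.

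Genes that assemble or regulate the pump outside the name rule (10 genes, 58 peaks) had 3 peaks that rose and 9 that fell with IL4 (5.17% and 15.5%). The falls were at Dmxl2, Rogdi and Ncoa7. With Cort 0 were called and with Dex 1 fell (1.72%), at Wdr7. With the block 3 rose and 5 fell with Cort (5.17% and 8.62%), 4 and 5 with Dex (6.9% and 8.62%), and 4 and 18 with IL4 (6.9% and 31%). Genes that deliver enzymes to lysosomes or inhibit cathepsins had 53 peaks. Of these, 2 rose with Cort (3.77%) and 6 with Dex (11.3%, beside 2.9% of all peaks). All of these rises were at Gnptab and Gga2, and with each steroid 11 of the 13 genes with peaks were not called. With IL4 7 rose (13.2%) and 1 fell (1.89%). With the block 7 rose and 0 fell with Cort (13.2% and 0%), and 14 and 6 with IL4 (26.4% and 11.3%). With Dex and the block 16 rose and 1 fell (30.2% and 1.89%, beside 9.91% and 10.3% of all peaks). Gnptab, which makes the mannose 6-phosphate tag of lysosomal enzymes, rose at chr10:88388376-88393674 by 1.07 ± 0.18 with Cort and 1.33 ± 0.18 with Dex. At the TFEB family and the lysosomal mTORC1 scaffold (119 peaks) 0 peaks were called with Cort. With Dex 2 rose and 1 fell (1.68% and 0.84%), and with IL4 16 rose and 10 fell (13.4% and 8.4%). With the block 6 rose and 4 fell with Cort (5.04% and 3.36%), 11 and 5 with Dex (9.24% and 4.2%), and 26 and 12 with IL4 (21.8% and 10.1%). A peak inside Tfeb (chr17:47742319-47744251) rose with IL4 by 2.05 ± 0.28, and one inside Mtor fell by 1.65 on the log2 scale.

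All 10 macrophage marker genes had H3K27ac peaks, with a summed level of 3255 to 3839 CPM with vehicle, 3637 to 4281 with Cort, 3571 to 4286 with Dex and 2933 to 3372 with IL4. Peaks were found at 6 of 7 dendritic cell genes (326 to 477 CPM with vehicle, 202 to 271 with IL4), at 4 of 10 lymphoid genes and at 1 of 8 fibroblast genes. Neutrophil genes summed to 235 to 282 CPM with IL4. The osteoclast list, which holds Ctsk, summed to 1077 to 1243 CPM with vehicle and 1405 to 1567 with IL4. That sum takes in the broad Ctss lead peak, which also covers Ctsk and itself rose by 0.59 ± 0.11 with IL4. It is therefore not separate from the member values. The part of other cell types in the IL4 values of the members was not tested.

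GR is the nuclear receptor that both steroids activate. GR member peaks were short, with a median of 127 bp, and 63 of 80 (78.8%) lay in a gene, against 47.8% of all GR peaks. They gathered at a few genes: Ctsd had 10, Ctsl 9, Ctsb and Ctss 8 each, Lgmn 7, Lamp1 6 and Ctsz 5. Most of these peaks were called lower in batch 2, in the batch contrast given below. They were 8 at Ctsd, 7 each at Ctsl, Ctsb and Ctss, 6 each at Lgmn and Lamp1, and 5 at Ctsz. Thus 7 of 23 member genes had 5 or more GR peaks, beside 123 of the 4395 genes with any. An H3K27ac peak overlapped 53 of the 80 (66.2%), and 52.9% of all GR peaks.

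More of these peaks were called between the labelled batches than with any treatment. With batch as a term beside treatment, 59 of 75 members were lower in batch 2 and 1 higher, a peak near Ctse, where 17.5% of all peaks were lower and 9.22% higher (26.7% either way). The median log2 difference was -3.25 over the members and 0.02 over all peaks. In 57 of 75 members (76%), against 15.8% of all peaks, every batch 1 library was above every batch 2 library of the same treatment in vehicle, Cort and Dex. A peak inside Ctsb (chr14:63142267-63143153) is an example: vehicle read 391 and 759 CPM in batch 1 and 10.8 and 22.0 CPM in batch 2, a log2 difference of -5.64 ± 0.30. At a Ctsd peak (chr7:142375916-142376713) vehicle read 340 and 623 CPM in batch 1 and 8.26 and 18.1 CPM in batch 2, a difference of -6.03 ± 0.42. The members took 0.193 to 0.395% of the GR counts in batch 1 and 0.0188 to 0.0569% in batch 2. Of the members inside a gene and over 1 kb from its start, 54 of 61 were lower in batch 2, against 25.4% of all such peaks (6.05% higher, 31.4% either way). The count filter used the libraries of both batches, so a peak near 0 in batch 2 could be tested on its batch 1 counts alone. A Ctsd peak (chr7:142377009-142377132), for example, averaged 52.1 CPM in batch 1 and 0 CPM in batch 2 with Dex. The batch counts above, for members and for all peaks, are not free of that selection. This contrast was chosen after the values were seen, and what differed between the batches was not tested.

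**Figure D4:**
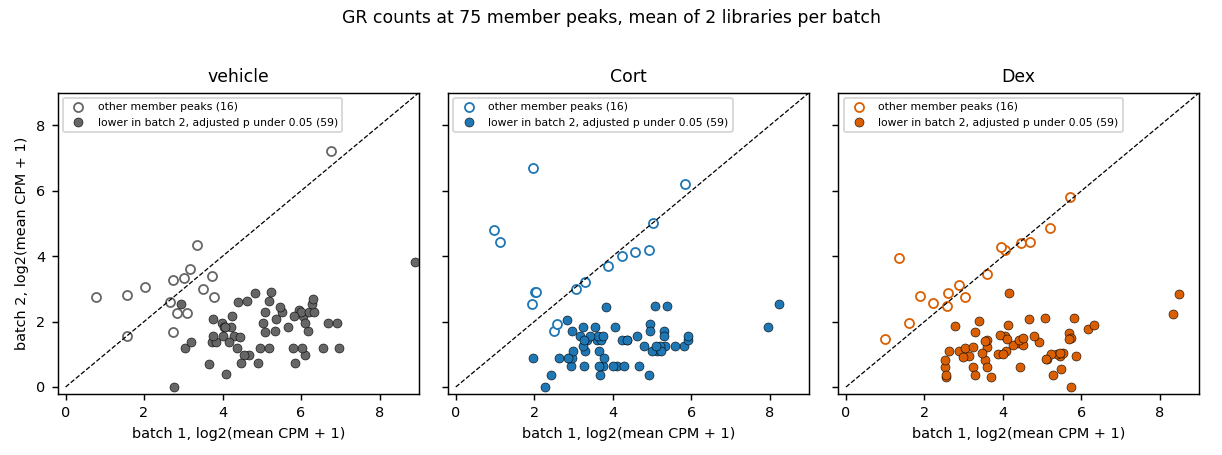
Mean GR level in batch 2 (y axis) against batch 1 (x axis), as log2(mean CPM + 1), at the 75 tested GR member peaks in vehicle, Cort and Dex, with the line of equality; filled points are the 59 peaks called lower in batch 2 and open points the other 16. The filled points lie below the line, and the open points include the 4 peaks raised by both steroids.

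Against vehicle and with batch in the fit, Cort raised 4 and lowered 12 GR members (27.6% of all peaks called). These were 5.33% and 16% of the members, beside 12.8% and 14.8% of all peaks. Dex raised 4 and lowered 4 (30.3% of all peaks called, 14.7% higher and 15.6% lower). The median log2 change over the members was -0.76 with Cort and -0.67 with Dex, beside 0.17 and -0.12 over all peaks. The 4 raised peaks were the same with both steroids, near Lgmn, Ctsb, Ctsd and Atp6v0d1. None of them was called between batches, and each lay inside an H3K27ac member peak: the lead peaks of Lgmn, Ctsb and Ctsd, and the Atp6v0d1 peak whose H3K27ac rose with Dex.

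The Lgmn peak (chr12:102453587-102453975), 13.9 kb outside the gene, read 11.3, 13.4, 11.4 and 7.75 CPM with vehicle, 33.4, 29.5, 32.2 and 29.8 with Cort, 41.6, 30.1, 18.5 and 38.1 with Dex, and 18.5, 19.4 and 19.6 with IL4. All steroid libraries were above all vehicle libraries. The log2 change was 1.50 ± 0.29 with Cort (edgeR adjusted p = 0.0030) and 1.53 ± 0.29 with Dex (adjusted p = 0.0015). The Atp6v0d1 peak (chr8:105546677-105546949), in the gene, read 2.83, 3.34, 5.72 and 9.05 CPM with vehicle, 13.0, 14.3, 9.04 and 15.2 with Cort, 16.6, 12.1, 13.7 and 23.2 with Dex, and 3.42, 4.68 and 5.27 with IL4. Dex libraries stood above all vehicle libraries, and Cort overlapped vehicle by a single library. The changes were 1.33 ± 0.36 with Cort and 1.66 ± 0.35 with Dex.

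The Ctsb peak (chr14:63129030-63129302), in the gene, read 5.66, 5.57, 10.8 and 6.46 CPM with vehicle, 24.1, 21.2, 18.6 and 14.1 with Cort, and 18.3, 23.8, 25.6 and 14.4 with Dex. No steroid library fell into the vehicle range, and the changes were 1.39 ± 0.37 and 1.46 ± 0.37. The Ctsd peak (chr7:142399267-142399655), 11.4 kb outside the gene, read 14.2, 6.69, 11.4 and 2.58 CPM with vehicle, 32.4, 26.6, 16.4 and 18.0 with Cort, and 27.2, 22.3, 20.8 and 20.0 with Dex, with changes of 1.36 ± 0.38 and 1.35 ± 0.38. In batch 2 alone, where edgeR called 0% of all peaks, the changes at these 4 peaks were 0.62 to 1.57 with Cort and 1.14 to 1.51 with Dex. Without vehicle replicate 2 the Cort calls at Ctsb, Ctsd and Atp6v0d1 were lost, with edgeR adjusted p of 0.052 to 0.062, as was the Dex call at Ctsd at 0.053.

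**Figure D5:**
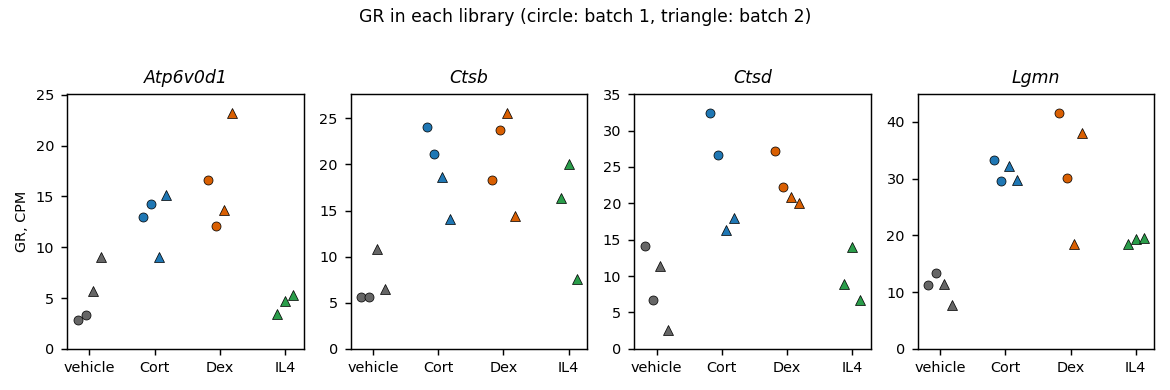
GR level in CPM (y axis) in each library by treatment (x axis) at the peaks near Atp6v0d1, Ctsb, Ctsd and Lgmn that rose with both steroids; circles are batch 1 and triangles batch 2. At Lgmn the vehicle libraries read 7.75 to 13.4 CPM and the Cort libraries 29.5 to 33.4 CPM, with both batches at like levels.

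With IL4, edgeR called no GR member and 0% of all peaks, though 8 members had an unadjusted p under 0.05, and DESeq2 called 1.

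The falls with steroid depend on scaling. Scaled by total counts, Cort raised 6 and lowered 0 members and Dex raised 7 and lowered 0; under that scaling the median log2 change of all peaks was 0.96 and 0.86. The peaks that fell with a steroid near Lgmn, Ctss, Ctsb, Ctsd, Ctsh, Ctsl, Hexa and Lamp1 were all among those lower in batch 2; 1 other peak that fell with both steroids was not.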

How the data were processed

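Chromatin immunoprecipitation sequencing of H3K27ac (12 libraries) and GR (15 libraries) was analysed; 1 input library was not used here. GR cells were crosslinked with DSG and formaldehyde, H3K27ac cells with formaldehyde alone, per the labels' protocols. The authors deposited raw counts per peak on mm10, made with fastp, Bowtie2, SAMtools, MACS2 and featureCounts, per the submitters' processing notes; versions and peak-calling settings are not given in the sources used here. Columns named C were taken as vehicle by elimination. Neither the input nor a control antibody was subtracted from these counts here, and the criterion behind the tables' filtered flag is not stated.

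From the counts, edgeR 4.0.16 in R 4.3.3 fitted all libraries of an assay together (filterByExpr with a minimum count of 10, TMM scaling, quasi-likelihood test, Benjamini-Hochberg over all tested peaks), with batch as a term for GR. The standard error is the absolute log2 change over the square root of F. H3K27ac libraries with the same replicate number deviated together (r = 0.268 to 0.678, others -0.449 to 0.0406), so a replicate block was fitted as well. DESeq2 1.42.0 was an alternative. Peaks were matched to RefSeq gene spans and starts (GRCm38.p6); overlap needed 1 bp. The pipeline was tested on simulated data.

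The members and lists were chosen with earlier results of these data known. Named were each gene's lead peak, the called members of smallest p in each comparison (up to 10 per direction), tested GR members, and up to 4 genes per list. Values of some features that this rule takes in are not reported here, though summary counts include them.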

Additional observations from a re-analysis of the deposited data

Results flagged for a closer look

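In 7 of 225 groups of 4 GR libraries, each a member peak in 1 treatment, 1 library stood apart from the other 3 by Dixon's criterion at the 95% level. In groups drawn from a single normal distribution, chance meets this in about 1 of 20. These groups pool both batches, which differed at most member peaks, so that rate does not apply to them. Of the 7 libraries that stood apart, 3 were Cort replicate 4. At the Ctsh peak chr9:90061016-90061096 it read 51.8 CPM (92 counts) and the next Cort library 2.26 CPM. At the Ctsh peak chr9:90078639-90078740 it read 38.3 CPM (68 counts) and the next 2.82 CPM, and at the Ctsl peak chr13:64367284-64367426 it read 203 CPM (361 counts) and the next 4.43 CPM. None of these 3 peaks was called with Cort.

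Dex replicate 4 read 25.6 CPM (55 counts) at the Ctse peak chr1:131638835-131639106, and the next Dex library 3.57 CPM. Dex replicate 2 read 8.72 CPM at the Atp6v0c peak chr17:24167143-24167271, and the others 5.55 to 5.95 CPM. Vehicle replicate 2 read 13.4 CPM (12 counts) at the Lamp2 peak chrX:38456204-38456308. Vehicle replicate 3 read 10.8 CPM at the steroid-raised Ctsb peak chr14:63129030-63129302, and the next vehicle library 6.46 CPM.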

How the results depend on the processing

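With the replicate block, the numbers of H3K27ac member peaks called became 29 for Cort, 41 for Dex and 102 for IL4 against vehicle. They became 76 for Cort against IL4 and 83 for Dex against IL4, and stayed 0 for Dex against Cort. In that order, members were called at 12.8, 18.1, 44.9, 33.5, 36.6 and 0%, and all peaks at 12.6, 20.3, 43.5, 40.4, 42.7 and 0%. Among peaks with the tables' filtered flag set, the counts were 3 for Cort, 35 for IL4, 25 for Cort against IL4 and 27 for Dex against IL4, from fewer peaks tested. These were 3.33, 38.9, 27.8 and 30.0% of the members tested, beside 3.59, 36.4, 35.5 and 37.0% of all peaks. DESeq2 called 4 members with Cort (3.01%, beside 4.38% of all peaks). A fit of vehicle and Cort alone called 0 (0.746% of all peaks). Leaving out single libraries gave 0 to 1 calls for Cort, 2 to 5 for Dex, 39 to 60 for IL4, 0 to 0 for Dex against Cort, 24 to 39 for Cort against IL4 and 25 to 41 for Dex against IL4. The share over all peaks moved as well. Without single vehicle libraries it was 0.532 to 1.01% for Cort, 1.92 to 3.61% for Dex and 19.8 to 23.9% for IL4, beside 1.55, 5.24 and 27.6% with all libraries. Without single Cort libraries it was 19.6 to 20.7% for Cort against IL4, beside 25% with all libraries. The lowest counts of the 3 comparisons that involve IL4 came without IL4 replicate 3.

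For GR, the Cort count of 16 became 6 with total-count scaling (30.5% of all peaks called), 5 with no count filter (8.97%), 27 among flagged peaks (57.9%; members 65.9%), 28 with DESeq2 (32.1%), 5 with no batch term (18.5%) and 0 in batch 2 alone (0%). The Dex count of 8 became 5 with no count filter (14.4%), 27 among flagged peaks (59.2%; members 65.9%), 16 with DESeq2 (32.7%), 5 with no batch term (24%) and 0 in batch 2 alone (0%). The IL4 count was 1 with DESeq2, and the batch difference held at 34 flagged peaks (82.9% of members, 31.5% of all). Without single libraries the counts ran from 5 (without vehicle replicate 2) to 30 (without Cort replicate 4) for Cort, 4 (without vehicle replicate 2) to 14 (without vehicle replicate 1) for Dex, 0 to 0 for IL4 and 58 to 63 for batch. One called value changed sign: the Ctsb peak chr14:63142267-63143153 with Dex was at 0.072 under total-count scaling. Within batches, GR libraries with the same replicate number had r of -0.197 to 0.187. With 2 libraries per treatment and batch, the other pairs mirror these values with the sign turned. Whether replicate numbers pair the GR libraries could therefore not be decided. With the replicate block and IL4 left out, 19 members were called with Cort and 10 with Dex (35.8% and 39.7% of all peaks). No paired analysis was possible because all IL4 libraries lie in batch 2 for GR with IL4. Within batch 1 alone the counts were 21 with Cort and 12 with Dex. Shares over all GR peaks are not given here for batch 1 alone or without single libraries. Those counts are therefore not read as particular to the members. The cause of these moves was not tested. The batch contrast, its alternatives and batch 1 alone were chosen after seeing the data. GR depth, at most 1981582 counts, limits the precision at single peaks.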
